A study of Mus musculus with 12 samples.

Results

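The genotype difference in polysomal enrichment is a double contrast computed for every gene: how much a transcript was over- or under-represented in polysomal relative to total RNA in Ddx27-knockout cells, minus the same quantity in wild-type cells. Members were all genes listed for both genotypes, joined by their Ensembl identifier, which gave 12590 of the 13768 genes listed for either one. Of these, 12474 reached a value of 1 in 3 or more libraries and were tested, and 116 did not. The cells were C2C12, an established mouse myoblast line. The wild-type and Ddx27-/- groups each gave total RNA and RNA recovered from purified polysomes, with 3 samples per group in the labels. The labels give no treatment, culture time or clone for either genotype, and do not say whether samples of a group came from separate cultures. The p-values therefore measure only the spread between these samples, which may be technical. Values from 11 libraries were analysed, namely 3 of each wild-type fraction, 2 of knockout total RNA and 3 of knockout polysomal RNA.

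Polysomes are mRNAs that carry several ribosomes at once, so the polysomal share of a transcript is commonly read as a measure of how actively it is translated. Ddx27 encodes a DEAD-box helicase of the nucleolus that takes part in the maturation of ribosomal RNA, where it works with the PeBoW complex of Pes1, Bop1 and Wdr12 in making the large ribosomal subunit. Myoblasts depend on abundant ribosome synthesis while they divide, and switch to contractile and neuromuscular genes as they differentiate.

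The libraries held 13683674 to 27347878 reads in listed genes. Ddx27 (chr2:167015313-167034945, GRCm38.p6) was at 150, 144 and 139 normalised read counts in wild-type total RNA and at 39.7 and 45.0 in knockout total RNA. Its knockout values were below every wild-type value in both fractions, so Ddx27 transcript was lower but still present in the libraries labelled knockout. Its polysomal enrichment did not pass the test between genotypes (difference -0.41 ± 0.34 SE on the log2 scale, limma adjusted p = 0.479). Myoblast markers were Myod1, Myf5, Des, Cdh15, Pax7, Itga7 and Vim, of which Vim is not particular to myoblasts. All 7 were listed for wild-type cells and 6 for knockout cells, where Pax7 was not listed. None of 6 endothelial markers was listed. Of 8 fibroblast markers, 5 were listed for wild-type and 3 for knockout cells. Their summed level was 45.7 to 66.4 in wild-type and 17.2 to 23.6 in knockout total RNA. The listed myoblast markers, Vim included, summed to 13833 to 17609 in wild-type and 10606 to 12449 in knockout total RNA. Adipocyte markers had 3 of 7 listed (summed level 68.4 to 84.7 in wild-type and 73.2 to 82.7 in knockout total RNA) and osteoblast markers 1 of 6, Runx2 (49.8 to 56.6 and 41.2 to 45.9). Leukocyte markers had 3 of 7 listed for wild-type and 4 for knockout cells, at 13.4 to 17.8 and 24.2 to 34.6. The 4 gene models that collect ribosomal RNA sequence (Gm26924, mmu-mir-6236, Lars2 and Gm23935) took 5.91, 14.5 and 0.674% of wild-type polysomal reads and 23.1, 32.7 and 0.385% of knockout polysomal reads, but at most 0.135% of total RNA reads. Their part in the results was not tested beyond the fits given beside them. In bulk libraries, less RNA per cell and fewer cells of a kind cannot be told apart.

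Few genes passed the test of the difference. It was higher in the knockout for 28 genes (0.224% of those tested) and lower for 5 genes (0.0401%) by limma at an adjusted p under 0.05, the smallest adjusted p being 0.0249. At an unadjusted p under 0.05 there were 1476 higher genes (11.8%) and 1128 lower genes (9.04%). The median difference over all genes was 0.09, and 5 to 95% of genes lay between -1.18 and 1.25, while the median standard error was 0.38. Mean enrichment spread more widely over genes in the wild type (SD 0.78) than in the knockout (SD 0.59). By single library, only wild-type polysomal replicate 2 stood apart. Median absolute enrichment was 0.42, 0.79 and 0.38 in wild-type and 0.42, 0.43 and 0.40 in knockout polysomal replicates. Across the 12474 genes, the enrichments of the 2 genotypes had a Pearson r of 0.44 and a Spearman rho of 0.32, a description only, since genes are not independent replicates.

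These 33 calls are sensitive to single libraries. No gene passed when any of the 3 wild-type total libraries, wild-type polysomal replicate 3, knockout total replicate 2, or knockout polysomal replicate 2 or 3 was left out. Without wild-type polysomal replicate 2, 218 genes were higher and 137 lower. Without knockout total replicate 1 the counts were 112 and 74, and without knockout polysomal replicate 1 they were 65 and 21. Leaving out the 3 polysomal libraries above 10% ribosomal RNA-like reads left only replicate 3 in the knockout polysomal group. That group then had no replication, so only the median difference over all genes is given, which was 0.08. Fits without a knockout total library also had 1 library in that group. All 33 genes kept their direction in each fit without 1 or more libraries. The genes were chosen from these same data and the fits share most values, so a reversal was unlikely and the kept direction supports nothing.

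**Figure D1:**
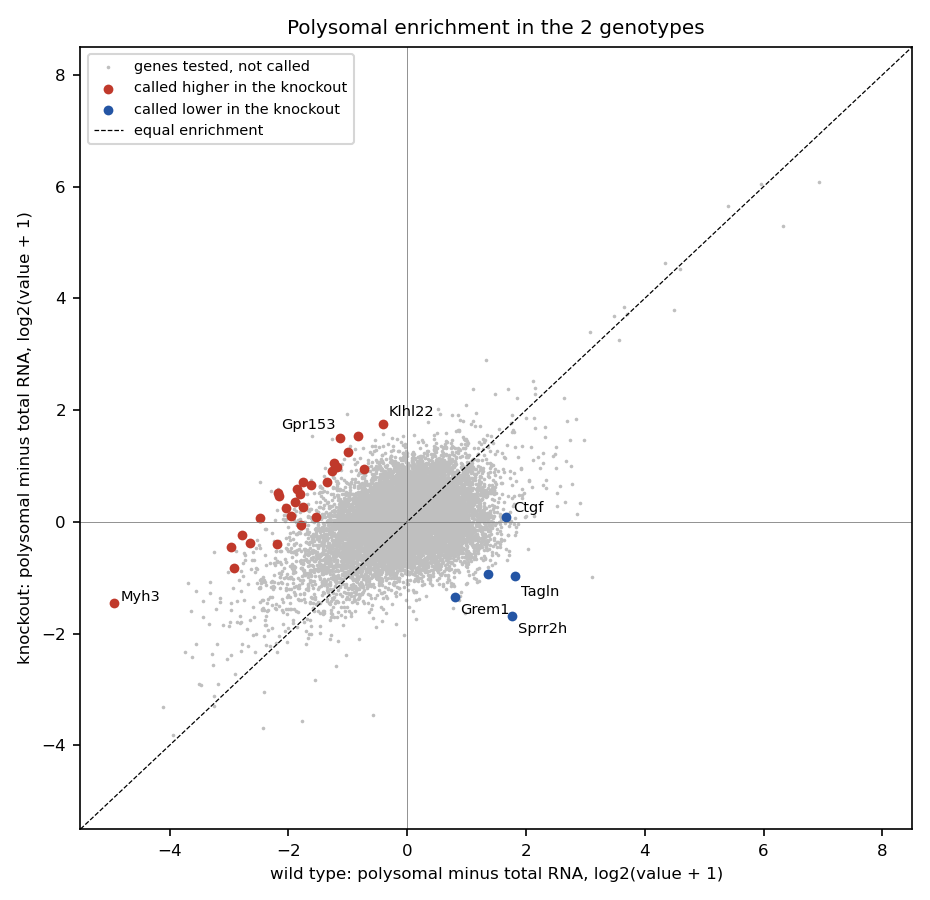
Each point is 1 of the 12474 genes tested, with its polysomal minus total RNA level in the wild type on the x axis and in the knockout on the y axis, both on the log2(value + 1) scale. The 28 genes called higher in the knockout (red) lie at negative wild-type enrichment and the 5 called lower (blue) at positive wild-type enrichment, on opposite sides of the dashed line of equal enrichment.

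The genes called higher were mostly ones under-represented in wild-type polysomes. Of the 28, 27 were themselves called lower in wild-type polysomal than total RNA, where 14.6% of all genes were, and 21 had a negative wild-type and a positive knockout enrichment. In the knockout, 7 were called higher in polysomes, against 3.37% of all genes, and 0 were called lower, against 4.35%. These enrichments are parts of the contrast that chose the genes, so the counts describe the calls and support nothing.

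Muscle differentiation genes were among the 28. Myh3 (chr11:67078273-67102291), the embryonic myosin heavy chain, was at 24.3, 24.9 and 67.7 in wild-type total RNA and at 0.415, 0 and 0.128 in wild-type polysomal RNA. In the knockout it was at 3.40 and 0.971 in total RNA and at 0, 0.0856 and 0.129 in polysomal RNA. Total and polysomal values did not overlap in either genotype, and polysomal RNA was close to the floor in both. A value of 0 leaves room for up to 3 reads, or 0.242 in wild-type polysomal replicate 2 and 0.204 in knockout polysomal replicate 1, for counting error only. The difference was 3.47 ± 0.59 (SE, limma adjusted p = 0.0413), while polysomal Myh3 differed by -0.11 between genotypes on a common scale. Myh3 passed neither edgeR (difference 2.78, adjusted p = 0.361) nor DESeq2 (adjusted p = 0.147) on recovered reads.

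Chrnd (chr1:87190597-87200070), the delta subunit of the muscle acetylcholine receptor, fell from 51.6, 50.3 and 85.0 in wild-type total RNA to 6.60, 8.94 and 5.54 in polysomal RNA. In the knockout it was at 18.96 and 12.3 in total RNA and at 10.4, 9.33 and 13.5 in polysomal RNA. The fractions were separate in the wild type and overlapped in the knockout, a difference of 2.51 ± 0.41 (limma adjusted p = 0.034). Casq2, a calcium-binding protein of the sarcoplasmic reticulum, followed with 8.03, 6.60 and 14.2 in wild-type total RNA, 1.62, 1.61 and 2.26 in wild-type polysomal RNA, 1.68 and 0.971 in knockout total RNA and 1.97, 2.99 and 2.41 in knockout polysomal RNA. Its wild-type fractions were separate with total RNA higher, its knockout fractions were separate with polysomal RNA higher, and the difference was 2.43 ± 0.41 (limma adjusted p = 0.0412, edgeR 0.0519).

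In a second set, total RNA did not pass the test between genotypes and polysomal RNA was higher in the knockout. Mxd4 (chr5:34176580-34187710), which encodes a MAX partner that opposes Myc, was at 102, 94.3 and 105 in wild-type total RNA and at 45.2, 42.6 and 30.5 in wild-type polysomal RNA. In the knockout it was at 101 and 84.6 in total RNA and at 164, 132 and 164 in polysomal RNA. Polysomal RNA was thus the lower fraction in all wild-type libraries and the higher one in all knockout libraries, and the difference was 2.06 ± 0.28 (limma adjusted p = 0.0249).

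Csf2rb, the shared beta chain of several cytokine receptors, was at 28.1, 32.5 and 31.3 in wild-type total RNA and at 9.75, 7.49 and 7.29 in wild-type polysomal RNA. Knockout values were 38.3 and 35.9 in total RNA and 34.7, 33.3 and 38.6 in polysomal RNA. The wild-type fractions were well apart and the knockout fractions overlapped (difference 1.73 ± 0.26, limma adjusted p = 0.034). Mmp15, a membrane-anchored metalloprotease, had the same pattern, with 3.94, 4.83 and 6.31 in wild-type polysomal RNA against 28.5, 29.7 and 43.6 in knockout polysomal RNA, and a difference of 2.05 ± 0.34 (limma adjusted p = 0.0344). Plin4, a lipid droplet coat protein, was at 1.74, 0.806 and 1.88 in wild-type polysomal RNA and at 10.3, 8.04 and 9.73 in knockout polysomal RNA, with total RNA of 14.6 to 16.5 and 10.1 to 12.5 (difference 2.53 ± 0.33, limma adjusted p = 0.0249).

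Nefl and Krt19 were low in both knockout fractions. Nefl, the light neurofilament chain, was at 272 to 378 in wild-type total RNA, 59.1 to 91.5 in wild-type polysomal RNA, and between 1.09 and 3.08 in all 5 knockout libraries (difference 2.29, limma adjusted p = 0.0452). Krt19, an epithelial keratin, was at 41.7 to 62.0, 10.7 to 15.1 and, in the knockout, between 0.726 and 2.25 (difference 2.29, limma adjusted p = 0.034). Adam8, a membrane protease, Ston2, an endocytic adaptor, Drp2, a dystrophin relative, Slc37a2, a sugar-phosphate transporter, Ppp2r2b, a regulatory subunit of phosphatase 2A, Inadl, a cell polarity scaffold, and Myo7b, an unconventional myosin, had differences of 2.24 to 2.69. Among these, Slc37a2 was at 5.79, 4.71 and 6.24 in knockout against 4.03, 2.26 and 3.75 in wild-type polysomal RNA. Inadl was at 4.63, 5.73 and 6.50 against 4.56, 2.09 and 4.05, so both were separate between genotypes on their own scales. On a common scale polysomal Inadl did not pass between genotypes (0.64, limma adjusted p = 0.167). Total Inadl was lower in the knockout (-1.87, limma adjusted p = 0.00252). Of the 28 genes, 13 had both knockout group means below 5 and 19 had both below 10. The added 1 in log2(value + 1) shrinks the knockout side of the contrast for such genes. On recovered reads, where no 1 is added, edgeR gave all 33 called genes the same direction and called 24, and DESeq2 called 32, the one not called being Myh3.

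**Figure D2:**
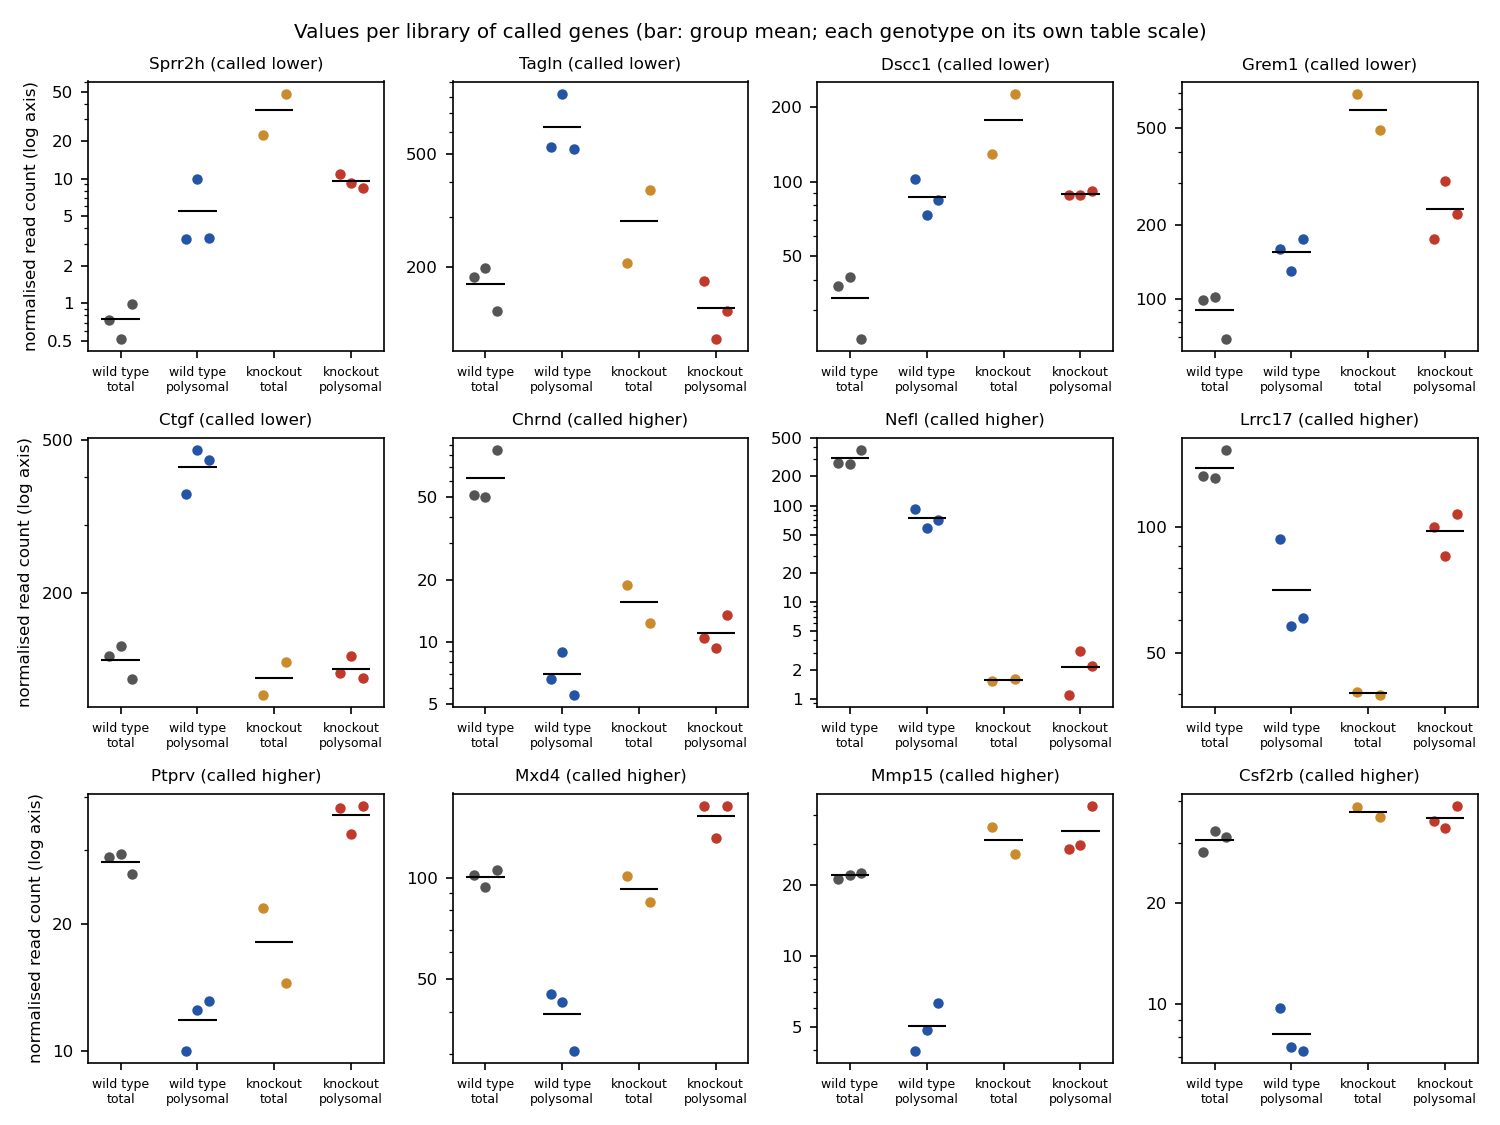
Normalised read counts per library (log axis) of the 5 genes called lower and of the 7 genes called higher that had the highest mean level, with a bar at each group mean; each genotype is on the scale of its own table. In Mxd4, Mmp15 and Csf2rb the wild-type polysomal libraries lie below all other libraries, and in Tagln and Ctgf they lie above them.

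The 5 genes called lower in the knockout were all called higher in wild-type polysomes, where 10.6% of all genes were. Tagln (chr9:45929628-45936058), the actin-binding protein transgelin, was at 184, 198 and 140 in wild-type total RNA and at 529, 819 and 522 in wild-type polysomal RNA. In the knockout it was at 206 and 373 in total RNA and at 178, 111 and 140 in polysomal RNA. The polysomal libraries were the higher ones in the wild type and the lower ones in the knockout, a difference of -2.80 ± 0.42 (limma adjusted p = 0.0334).

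Ctgf, a secreted matricellular growth factor of the immediate-early group, was at 137, 145 and 120 in wild-type total RNA and at 361, 471 and 443 in wild-type polysomal RNA. Knockout values were 108 and 132 in total RNA and 124, 137 and 120 in polysomal RNA. Total RNA overlapped between genotypes on their own scales, while the polysomal groups were separate (difference -1.57 ± 0.26, limma adjusted p = 0.0344).

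Grem1, a secreted BMP antagonist, was at 98.6, 102 and 68.3 in wild-type total RNA and at 160, 130 and 177 in wild-type polysomal RNA. Its knockout values were 694 and 491 in total RNA and 176, 304 and 223 in polysomal RNA, so the fractions were separate in both genotypes and in opposite order (difference -2.15 ± 0.37, limma adjusted p = 0.0452). Dscc1, a subunit of a clamp loader needed for sister chromatid cohesion, was at 22.9 to 40.9 and 73.2 to 103 in wild-type total and polysomal RNA, and at 129 and 227 against 87.8 to 91.6 in the knockout (difference -2.29, limma adjusted p = 0.0413). Sprr2h, a small proline-rich protein of epithelial barriers, was at 0.516 to 0.984 and 3.28 to 9.99 in the wild type and at 22.6 and 48.2 against 8.48 to 10.96 in the knockout (difference -3.46, limma adjusted p = 0.034).

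Next in order by p among genes with lower knockout enrichment and a mean of at least 10 in a group, but past no adjusted threshold, came Ydjc, Nqo1, Ccl7, Cck, Lce1g, Ebna1bp2 and Ube2e1, with limma adjusted p of 0.0527 to 0.063. Nqo1, a quinone reductase induced by oxidative stress, was at 46.2 to 59.3 and 38.1 to 53.7 in wild-type total and polysomal RNA and at 273 and 343 against 75.4 to 102 in the knockout. Ebna1bp2, a factor of large ribosomal subunit assembly, was at 84.5 to 88.9 and 193 to 301 in the wild type and at 124 and 216 against 99.3 to 157 in the knockout, so its fractions were separate only in the wild type.

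Placing both genotypes on 1 scale by the median of ratios showed which fraction differed. In total RNA, 25 of the 28 higher genes were lower in the knockout, 21 of them called, where 5.79% of all genes were called lower. In polysomal RNA, 7 were called higher (4.82% of all genes) and 7 lower (3.5%). Of the 5 lower genes, 3 were called higher in knockout total RNA (4.71% of all genes) and 2, Tagln and Ctgf, were called lower in knockout polysomal RNA. The difference is the polysomal minus the total RNA change, so these counts describe how each call arose.

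**Figure D3:**
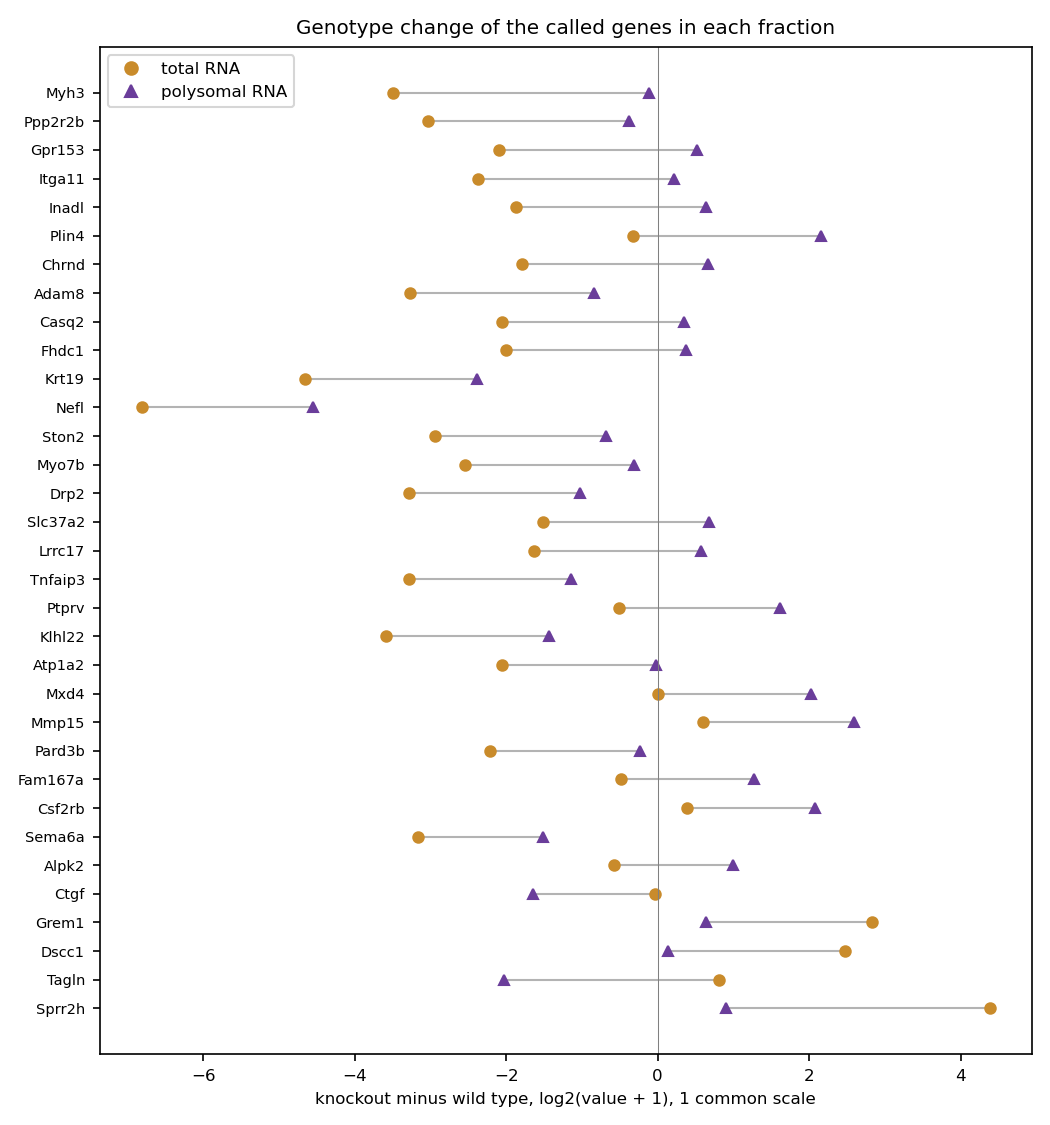
For each of the 33 called genes, the knockout minus wild-type difference in total RNA (circles) and in polysomal RNA (triangles) is shown on the log2(value + 1) scale after scaling all 11 libraries together. Circles lie left of 0 for 25 of the 28 higher genes, while the polysomal values of Plin4, Mxd4, Mmp15, Csf2rb and Ptprv lie right of 0.

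Ribosome assembly factors had lower knockout enrichment as groups, although no member passed the adjusted test. Of 54 large-subunit assembly factors, 46 had a difference below 0, where 54.9% of all genes were above 0. With an unadjusted p under 0.05, 26 were lower and 0 higher, against 9.04% and 11.8% of all genes. The median difference was -0.61 against 0.09 for all genes. Median enrichment was 0.36 in the wild type and -0.39 in the knockout. Medians in the single polysomal libraries were 0.38, 0.27 and 0.50 in the wild type and -0.34, -0.27 and -0.44 in the knockout, which do not overlap. Calls depended on the fit. edgeR called 0 of the 54, and limma with the ribosomal RNA-like share as a covariate 0. DESeq2 called 22 lower, among 462 of 12231 genes in all. Without the 3 libraries rich in ribosomal RNA-like reads, only knockout polysomal replicate 3 was left in its group, and the median difference was -0.95.

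Within that list, Nop16 was at 56.2, 57.1 and 46.0 in wild-type total RNA and at 149, 255 and 135 in wild-type polysomal RNA, and in the knockout at 85.1 and 118 against 115, 79.6 and 67.8. Its fractions were separate in the wild type and overlapped in the knockout (difference -1.92 ± 0.41, limma adjusted p = 0.069). Wdr12, a member of the PeBoW complex, was at 35.1, 31.5 and 25.01 against 63.4, 50.3 and 74.7 in the wild type, and at 43.2 and 59.7 against 36.2, 37.4 and 37.8 in the knockout. The fractions of Wdr12 were separate in both genotypes, in opposite order (difference -1.45 ± 0.31, limma adjusted p = 0.069). The other PeBoW members had smaller differences, -0.62 for Pes1 and -0.78 for Bop1, with limma adjusted p of 0.228 and 0.236.

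Small-subunit assembly factors had a median difference of -0.59, with 45 of 49 below 0. Of the 49, 18 had an unadjusted p under 0.05, all lower, where 9.04% of all genes were lower. Rrp9, a U3 snoRNP protein, had the smallest p (difference -1.79 ± 0.36, limma adjusted p = 0.069), with 97.4, 176 and 107 in wild-type polysomal RNA and 64.4, 51.4 and 42.3 in knockout polysomal RNA. The polysomal medians of this list overlapped, because wild-type replicate 2 was at -0.22. Core snoRNP proteins, which carry the guide RNAs that modify ribosomal RNA, were all below 0 (15 of 15, median -0.84), and 8 had an unadjusted p under 0.05. Among them Nhp2 had a difference of -2.16 and fibrillarin (Fbl) of -1.15, with limma adjusted p of 0.109 and 0.138. RNA polymerase I machinery had a median of -0.48, with 19 of 24 below 0.

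**Figure D4:**
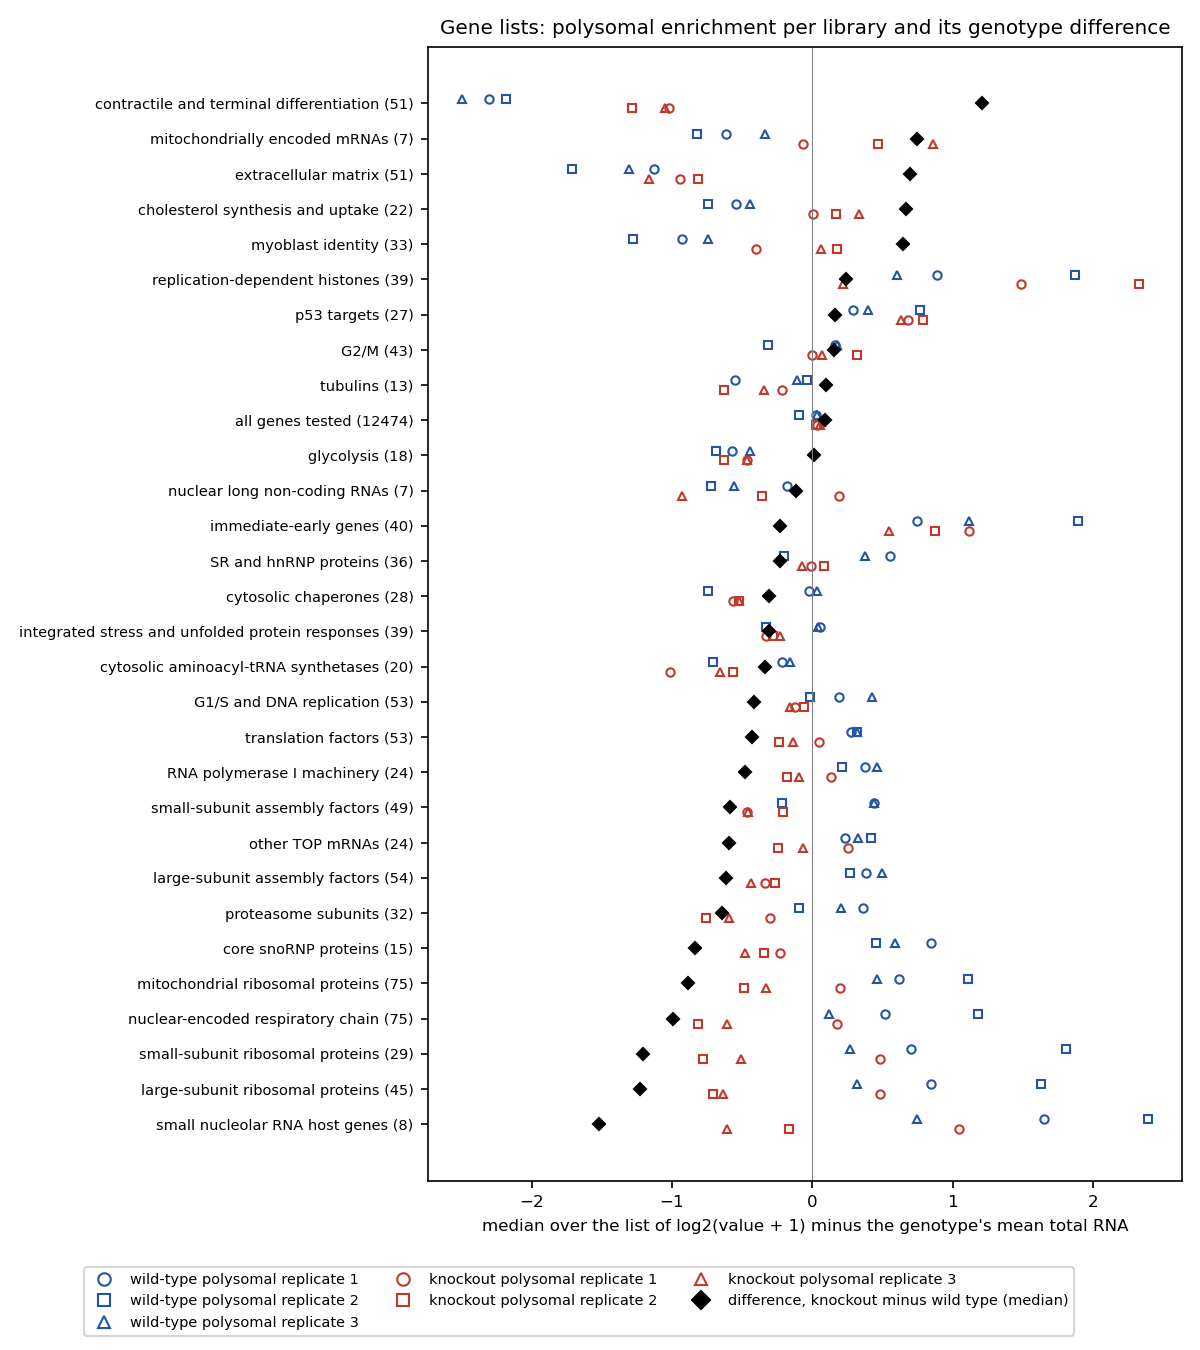
For each gene list (number tested in brackets), open symbols give the median level in each polysomal library relative to the mean total RNA of its genotype, and the diamond gives the median difference, knockout minus wild type, on the log2(value + 1) scale. Large-subunit assembly factors, core snoRNP proteins and contractile genes have separate wild-type and knockout polysomal libraries, while the ribosomal protein lists overlap through knockout polysomal replicate 1.

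Ribosomal protein mRNAs carry a 5′ terminal oligopyrimidine (TOP) tract, a C at the start of transcription followed by pyrimidines, through which their translation is known to be regulated together. A C at the annotated start followed by at least 4 bases that are each C or T, read on the gene's strand at the start only, was found in 13 of the 55 ribosomal protein genes with a RefSeq promoter entry (23.6%). Counted by gene in the same way, it was found in 264 of 8575 tested genes with an entry (3.08%). Counted by entry, it was found in 2.51% of all 32851 promoter entries. The start regions of the 6 ribosomal protein genes with the tract and the smallest p are shown because the tract is the element their mRNAs have in common. Each run covers 15 bases before and 15 from the annotated start on the gene's strand (RefSeq, GRCm38.p6), with the tract in capitals.
Rps27 (chr3:90213634-90213663, minus strand): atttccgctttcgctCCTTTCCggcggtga
Rps6 (chr4:86857353-86857382, minus strand): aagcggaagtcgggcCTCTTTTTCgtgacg
Rps15a (chr7:118116133-118116162, minus strand): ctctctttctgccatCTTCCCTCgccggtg
Rpl14 (chr9:120571502-120571531, plus strand): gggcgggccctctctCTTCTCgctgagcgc
Rplp2 (chr7:141447636-141447665, plus strand): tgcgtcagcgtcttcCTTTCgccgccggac
Fau (chr19:6057932-6057961, plus strand): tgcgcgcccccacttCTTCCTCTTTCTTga

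The ribosomal protein lists had positive median enrichment in the wild type and negative in the knockout. Large-subunit proteins had a median enrichment of 0.89 in the wild type and -0.26 in the knockout, with 44 of 45 differences below 0 and a median difference of -1.22. Small-subunit proteins had medians of 0.97 and -0.29, with 29 of 29 below 0 and a median difference of -1.20. At an unadjusted p under 0.05, 14 large-subunit and 7 small-subunit proteins were lower and 0 higher, against 9.04% and 11.8% of all genes. None of the ribosomal proteins passed adjustment. Replicates disagreed: large-subunit medians were 0.85, 1.63 and 0.32 in wild-type polysomal replicates, and 0.48, -0.71 and -0.64 in knockout polysomal replicates. The 2 knockout total libraries were themselves apart, at -0.36 and 0.36. Without knockout total replicate 2 the median difference was -0.80 for large-subunit and -0.73 for small-subunit proteins, and without wild-type polysomal replicate 2 it was -0.80 for the latter.

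Rps24 was at 51.3, 55.3 and 47.2 in wild-type total RNA and at 153, 231 and 83.9 in wild-type polysomal RNA, and in the knockout at 101 and 262 against 228, 89.9 and 89.9. Its fractions were separate in the wild type and overlapped in the knockout (difference -1.88 ± 0.68, limma adjusted p = 0.172). Rps6, whose start is shown above, had a difference of -1.44 ± 0.50 (limma adjusted p = 0.16), and Rplp2 had one of -2.08 ± 0.92 (limma adjusted p = 0.229). Many ribosomal protein genes have near-identical pseudogenes that can share reads, so their levels are uncertain.

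Medians with and without a match to the tract at the annotated start were close. Ribosomal protein genes with a match had a median difference of -1.28 and those without one -1.24. Genes without a match there may still carry the tract, so these medians do not compare mRNAs with and without it. Among all other genes tested, the 246 with a match had a median of 0.07 and the 8257 without one 0.13. Other mRNAs known to carry the tract had a median of -0.59 (-0.35 without knockout total replicate 2), and their members differed in direction. Eef1d, a subunit of the elongation factor that reloads eEF1A, had a difference of -1.25 ± 0.29, while Eef2, the translocation factor, had one of 1.04 ± 0.32, with limma adjusted p of 0.0811 and 0.131. Translation factors as a list had a median of -0.43. Of the 53 tested, 13 were lower and 3 higher at an unadjusted p under 0.05, against 9.04% and 11.8% of all genes.

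Nuclear-encoded mitochondrial genes had differences in the same direction. Mitochondrial ribosomal proteins had a median difference of -0.89, with 72 of 75 below 0. Of the 75, 31 had an unadjusted p under 0.05, all lower, where 9.04% of all genes were lower. Their polysomal medians did not overlap (0.62, 1.11 and 0.46 against 0.19, -0.49 and -0.33). The knockout medians rest on knockout total replicates 1 and 2, which were apart at -0.28 and 0.28. Without knockout total replicate 2 the median difference of these proteins was -0.61. Respiratory chain subunits had a median of -0.995, again with 72 of 75 below 0, and 24 lower at an unadjusted p under 0.05. Their polysomal medians overlapped (0.52, 1.18 and 0.12 in the wild type, 0.17, -0.81 and -0.61 in the knockout), and the median difference was -0.55 without knockout total replicate 2. Mrpl13 had the smallest p, with 443, 482 and 353 against 1292, 1291 and 873 in wild-type total and polysomal RNA, and 1608 and 3427 against 2190.2, 1349 and 1419 in the knockout. Its fractions were separate in the wild type and overlapped in the knockout (difference -1.96 ± 0.46, limma adjusted p = 0.0811). The 7 mitochondrially encoded mRNAs measured, which are translated on ribosomes inside the organelle, all had differences above 0, with a median of 0.75. That median was 0.26 without knockout total replicate 1, 1.26 without knockout total replicate 2 and 1.47 with each library's length trend removed.

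Contractile and terminal differentiation genes had the opposite direction. Of 51 tested, 45 had a difference above 0, and Myh3, Chrnd and Casq2 were called, where 0.224% of all genes were called higher. With an unadjusted p under 0.05, 27 were higher and 3 lower, against 11.8% and 9.04% of all genes. Median enrichment was -2.44 in the wild type and -1.18 in the knockout, so these transcripts were under-represented in polysomes in both, and by less in the knockout (median difference 1.21). Polysomal medians were -2.30, -2.18 and -2.49 in the wild type and -1.02, -1.28 and -1.05 in the knockout, without overlap. Only 14 of the 51 had a mean of at least 10 in each of the 4 groups, and the median of those 14 was 0.24.

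Chrng, the acetylcholine receptor subunit of immature muscle, illustrates a gene with similar total RNA in both genotypes. It was at 13.7, 15.3 and 24.1 in wild-type total RNA against 0.788, 1.05 and 0.639 in polysomal RNA, and at 12.1 and 16.1 against 6.67, 3.34 and 6.15 in the knockout. Total RNA was higher in both genotypes, and the gap was smaller in the knockout (difference 2.05 ± 0.42, limma adjusted p = 0.069).

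Myoblast identity genes had a median difference of 0.65, with 24 of 33 above 0, and the 4 smallest p-values belonged to the Notch pathway, which holds myoblasts undifferentiated. Notch1 was at 49.8, 55.5 and 64.2 against 15.6, 5.96 and 16.5 in wild-type total and polysomal RNA, and at 10.95 and 9.27 against 10.96, 20.1 and 17.0 in the knockout. The fractions were separate in both genotypes and in opposite order (difference 2.76 ± 0.51, limma adjusted p = 0.0544). The receptor Notch3 and the Notch targets Heyl and Hey1 had differences of 1.76, 3.13 and 1.16, with limma adjusted p of 0.0785, 0.069 and 0.0811.

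Cholesterol synthesis and uptake genes had a median difference of 0.67, with 17 of 22 above 0. Of the 22, 8 were higher and 1 lower at an unadjusted p under 0.05, against 11.8% and 9.04% of all genes. Nsdhl, a dehydrogenase of cholesterol synthesis, was at 62.7, 61.5 and 63.2 against 32.5, 28.2 and 37.9 in wild-type total and polysomal RNA, and at 47.7 and 41.04 against 51.1, 50.1 and 72.7 in the knockout. Polysomal RNA was the lower fraction in the wild type and the higher one in the knockout (difference 1.28 ± 0.29, limma adjusted p = 0.078). Insig1, Srebf2 and Lss had differences of 1.25, 1.03 and 0.998. Wild-type polysomal medians for the list were -0.54, -0.74 and -0.44, below the knockout ones of 0.00, 0.17 and 0.33.

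Extracellular matrix genes had a median of 0.69, with 42 of 51 above 0. Of the 51, 16 were higher and 0 lower at an unadjusted p under 0.05, against 11.8% and 9.04% of all genes. Polysomal medians of the matrix genes overlapped between genotypes, and their median difference was 0.41 without knockout total replicate 2. The 3 fibroblast markers tested had a median of 1.01, all 3 higher at an unadjusted p under 0.05, and their part in the result was not tested. Col12a1, a fibril-associated collagen, had a difference of 1.73 ± 0.42 (limma adjusted p = 0.0875), and Tnc, tenascin C, one of 1.26 ± 0.34 (limma adjusted p = 0.107). Proteasome subunits had a median of -0.64 (30 of 32 below 0, and -0.42 without knockout total replicate 2), G1/S and DNA replication genes -0.42 (43 of 53 below 0) and the integrated stress and unfolded protein responses -0.31 (27 of 39 below 0). Immediate-early genes had a median of -0.23 with 1 call, Ctgf. Small nucleolar RNA host genes were all below 0 (8 of 8, median -1.52, and -1.08 without knockout polysomal replicate 3). Their polysomal medians overlapped (1.65, 2.39 and 0.74 in the wild type, 1.04, -0.16 and -0.60 in the knockout). Snhg5 was at 127 to 197 in wild-type polysomal RNA against 56.2 to 125 in knockout polysomal RNA. These Snhg5 values, each genotype on its own scale, give no enrichment by themselves. Glycolysis genes (median 0.01) and tubulins (0.10) were close to the median of all genes.

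Gene length moved with the difference. In 10 equal groups of genes by length, the median difference rose from -0.55 in the shortest (median 742.5 bases) to 0.73 in the longest (median 10195 bases). Wild-type enrichment fell from 0.51 to -0.61 over the same groups, while knockout enrichment went from -0.07 to 0.12. Median length was 5776.5 bases for the 28 higher genes, 2017 for the 5 lower ones and 3572 overall. The length trend differed between libraries: the enrichment changed per doubling of length by -0.22, -0.52 and -0.13 in wild-type polysomal replicates and by -0.16, 0.15 and 0.10 in knockout polysomal replicates.

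Removing each library's length trend left 86 genes higher and 42 lower, of which 25 and 5 were among the 33. List medians were then -0.79 and -0.81 for large- and small-subunit ribosomal proteins, -0.59 for large-subunit assembly factors, -0.60 for mitochondrial ribosomal proteins, 1.07 for contractile genes and 0.32 for extracellular matrix genes. With the trend removed, 5 large-subunit and 3 small-subunit assembly factors were called lower and 6 contractile genes higher.

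**Figure D5:**
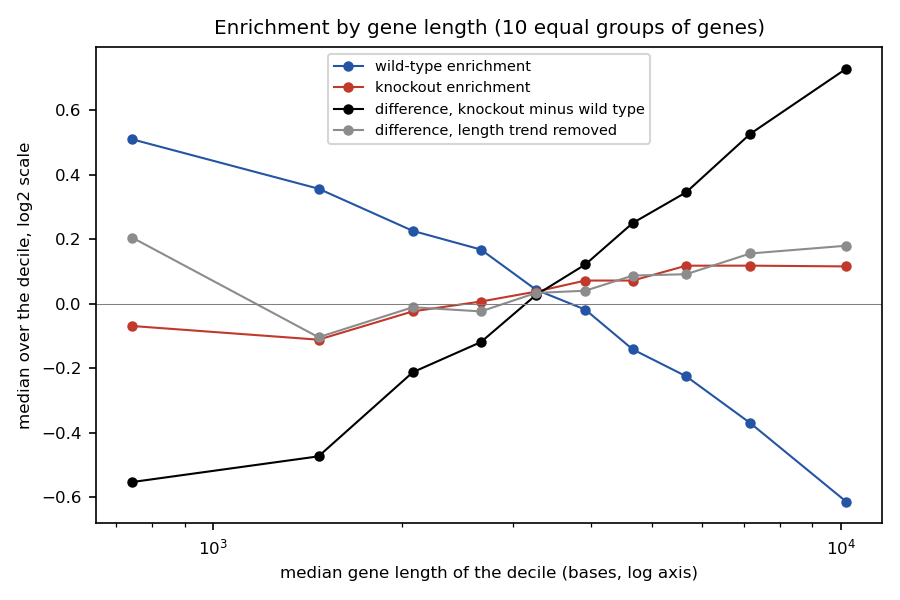
Median enrichment in the wild type (blue) and the knockout (red), and the median difference before (black) and after (grey) removal of each library's length trend, in 10 equal groups of genes by length (log axis, bases). The black line rises from -0.55 to 0.73, and the grey line stays between -0.10 and 0.21.

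The authors' deposited tables list, at an FDR limit of 0.05 and a log2 limit of 1, the genes that differed within each genotype. The authors' deposited tables of genes higher in polysomes shared 124 genes, 10.5% of the wild-type list and 30.2% of the knockout list. For scale, these lists held 1181 of all 13331 wild-type genes and 410 of all 13027 knockout genes. Those of genes lower in polysomes shared 300, 21.3% and 57.0%, and held 1406 and 526 of the same totals. In the authors' deposited tables, 6 genes were higher in wild-type and lower in knockout polysomes, and 4 the reverse. Fhdc1, a formin-family protein, had the largest shift among these 4, from a log2 fold change of -1.19 to 5.65 in the authors' deposited tables, and was also among the 28 genes called here, with 1.08 to 3.17 in knockout polysomal RNA and at most 0.066 in knockout total RNA. Sprr2h and Tagln were in the opposite group, with log2 fold changes of 2.88 and -1.88, and 1.84 and -1.02, in the authors' deposited tables. The largest shift in that group was that of Wfdc1, from 4.22 to -3.68 in the authors' deposited tables. Wfdc1 was not called here, nor were the remaining members Vmn2r78, Ctsw and Hddc2.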

How the data were processed

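The authors deposited 1 table per genotype with a signal for each gene in each library, a read count after scaling. STAR, HTSeq, edgeR and mm10 are named, per the submitters' processing notes, without versions or roles. Dividing each deposited column by its smallest step returned whole reads (100% of values within 0.001), so the deposited columns are scaled counts, scaled separately by genotype, and not plain CPM as the design had assumed. The authors' tables also hold log2 fold changes, FDR (adjusted p-values) and gene length.

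Genes were fitted with limma 3.58.1 (R 4.3.3, mean-variance trend, Benjamini-Hochberg adjustment, threshold 0.05) on log2(value + 1), with 4 group means over 11 libraries. Fold changes are on that scale, which understates a low gene's change within a genotype, so the difference between genotypes can come out larger or smaller. Recovered reads were tested with edgeR 4.0.16 and DESeq2 1.42.0. Code was tested on simulated data. The knockout columns match the sample titles by group only, and 2 of 3 knockout total samples have values here.

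Members and gene lists were chosen with earlier results of these data known. Named genes were up to 12 per direction by size among called genes with a mean of at least 10 in a group, filled by p, up to 5 per list by p, and fixed controls; other called genes, and the 7 most abundant higher ones plotted, were chosen after their values were seen. The list of ribosomal RNA-like models was revised after seeing the data. Of 12474 genes tested, 11542 symbols matched RefSeq GRCm38.p6.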

Additional observations from a re-analysis of the deposited data

Results flagged for a closer look

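The wild-type and knockout enrichments differed by the test of the difference itself (limma, adjusted p under 0.05) in 28 genes higher and 5 genes lower in the knockout. Among those with a mean of at least 10 in a group, the differences on the log2 scale were 3.47 for Myh3, 2.69 for Ppp2r2b, 2.55 for Inadl, 2.53 for Plin4, 2.51 for Chrnd, 2.47 for Adam8, 2.29 for Krt19, 2.29 for Nefl, 2.28 for Ston2, 2.27 for Myo7b, 2.27 for Drp2 and 2.24 for Slc37a2. The genes lower in the knockout were at -3.46 for Sprr2h, -2.80 for Tagln, -2.29 for Dscc1, -2.15 for Grem1 and -1.57 for Ctgf. Myh3 was close to the floor in polysomal RNA of both genotypes and passed neither edgeR (difference 2.78, adjusted p = 0.361) nor DESeq2 (adjusted p = 0.147). Groups of 3 or fewer libraries are too small for a test of outlying samples.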

How the results depend on the processing

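All 33 called genes kept their direction in every setting in which they were measured, but the number of calls depended on the setting. The 33 were chosen from these same data, and the settings reuse most of the same values. Their direction was thus all but fixed in advance and is no sign of stability. Against 28 higher and 5 lower, a pseudocount of 5 gave 64 and 11, a mean of at least 10 gave 4 and 0 (2000 genes at an unadjusted p under 0.05 by limma), quantile normalization 13 and 1, and removal of the length trend 86 and 42. Array quality weights gave 2016 and 1731, DESeq2 489 and 462, and edgeR 22 and 9. With the ribosomal RNA-like share as a covariate limma called 0 and 0 (2807 at an unadjusted p under 0.05). The wild-type replicate block also gave 0 and 0 (2427 at an unadjusted p under 0.05 by limma, edgeR 2652 without a block). Deviations from the group means had correlations of 0.21, -0.21 and -0.07 between same-numbered wild-type libraries. With so few libraries per group, these values cannot show whether the libraries were paired, and the labels do not state it. Leaving out 1 library gave 0 to 218 higher and 0 to 137 lower. After seeing the data, leaving out the 3 polysomal libraries above 10% ribosomal RNA-like reads gave 642 and 467, and a mean of at least 10 in each group gave 3 and 0, with 7 of the 33 genes measured. The share of higher genes among calls was 84.8%, and 51.4% under DESeq2 and 53.8% under array weights. The cause of these changes was not tested. List medians changed sign in some settings for histones, nuclear long non-coding RNAs, ribosomal RNA-like gene models, immediate-early genes, G2/M genes, glycolysis and tubulins, and in none for the other lists named in the report.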
